A study of Mus musculus with 4 samples.

Results

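The genes for the caseins and the whey milk proteins, Csn1s1, Csn1s2a, Csn2, Csn3, Wap and Lalba, were followed in single cells of 4 mouse mammary tumours. They are 6 of the 55472 rows of the gene table, found by their symbols, and each symbol had 1 row. The tumours came from 3 female FVB mice of 13 to 14 weeks that carried MMTV-PyMT, Rosa-tdTomato and K14Cre together. MMTV-PyMT drives the polyoma middle T oncogene from a mammary promoter, K14Cre expresses Cre recombinase under a human keratin 14 promoter, and Rosa-tdTomato reports Cre activity. Mouse 1 gave tumour 1, collected over multiple glands, and mouse 2 gave tumour 2, which was inguinal. Mouse 3 gave both tumour 3, which was thoracic, and tumour 4, which was inguinal. All samples carried the same alleles and were labelled tumour, so no conditions were compared, and the mouse was the replicate (n = 3).

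Caseins are the phosphoproteins that form the micelles of milk. Csn1s1 and Csn1s2a encode alpha-type caseins, Csn2 encodes beta-casein, and Csn3 encodes kappa-casein, which coats and stabilises the micelle. Whey proteins stay in solution. Wap encodes whey acidic protein, a protease inhibitor-like protein of rodent milk, and Lalba encodes alpha-lactalbumin, the subunit that turns a galactosyltransferase into lactose synthase. In the normal gland these genes are switched on in luminal alveolar cells during pregnancy and lactation by prolactin, through JAK2 and STAT5, together with glucocorticoids. The 4 caseins lie in 1 gene cluster, while Wap and Lalba are on other chromosomes.

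In GENCODE vM21 on GRCm38, the build named in the submitters' processing notes, Csn1s1 spans chr5:87666208-87682578 on the plus strand, Csn2 chr5:87692624-87699630 on the minus strand, Csn1s2a chr5:87774567-87788797 on the plus strand and Csn3 chr5:87925579-87932665 on the plus strand. Wap spans chr11:6635482-6638637 and Lalba chr15:98480400-98482721, both on the minus strand. The start regions of Csn1s1, Csn2 and Csn1s2a are shown because the co-detection results turn on these genes and the regions share a 9-base motif, TTCNNNGAA, the palindromic core bound by STAT factors. The sequences are from RefSeq on GRCm38.p6, run from 250 bases before to 50 bases after the annotated start, are read on the strand of the gene, and have the motif in capitals. They are chr5:87665958-87666257 (plus) for Csn1s1, chr5:87699376-87699675 (minus) for Csn2 and chr5:87774200-87774499 (plus) for Csn1s2a.
Csn1s1: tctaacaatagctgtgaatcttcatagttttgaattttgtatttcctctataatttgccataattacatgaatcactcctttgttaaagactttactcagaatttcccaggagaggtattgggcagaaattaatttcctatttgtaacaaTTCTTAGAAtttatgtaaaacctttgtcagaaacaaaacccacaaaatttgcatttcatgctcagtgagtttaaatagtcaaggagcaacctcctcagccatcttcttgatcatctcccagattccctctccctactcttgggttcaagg
Csn2: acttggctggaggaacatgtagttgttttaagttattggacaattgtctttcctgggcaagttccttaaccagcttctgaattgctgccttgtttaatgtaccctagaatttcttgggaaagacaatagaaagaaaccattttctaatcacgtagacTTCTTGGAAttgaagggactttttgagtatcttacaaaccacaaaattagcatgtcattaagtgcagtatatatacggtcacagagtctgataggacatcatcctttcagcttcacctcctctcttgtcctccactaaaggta
Csn1s2a: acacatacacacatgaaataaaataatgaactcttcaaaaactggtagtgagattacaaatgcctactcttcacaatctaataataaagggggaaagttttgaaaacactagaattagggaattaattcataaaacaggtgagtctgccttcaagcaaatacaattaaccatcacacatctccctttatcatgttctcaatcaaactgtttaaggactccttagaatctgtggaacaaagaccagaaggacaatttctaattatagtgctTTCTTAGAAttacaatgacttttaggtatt

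The match TTCTTAGAA began 100 bases before the RefSeq start of Csn1s1, and TTCTTGGAA began 93 bases before that of Csn2. In Csn1s2a the same letters as in Csn1s1, TTCTTAGAA, began 20 bases after the RefSeq start. For Csn2 and Csn1s2a the RefSeq start is not the GENCODE start given above. The Csn2 match lies inside the GENCODE span of that gene, and the Csn1s2a match lies before the GENCODE start of Csn1s2a. Windows for 5 of the 6 genes were at hand, and those of Wap and Lalba held no match to these letters. Among all 32851 windows of this kind, 8.30% held the motif on either strand, which for a palindrome is 1 search. A match is a description of the letters and not a bound site.

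The libraries held 8434 to 9580 barcodes each, with median totals of 1922.5 to 3281 UMIs, that is, counted unique molecules. Any pair of libraries shared 96 to 129 barcode sequences. A cell was called epithelial with 3 or more UMIs of Krt8, Krt18 and Epcam in sum and at most 1 of C1qa, C1qb, Col3a1 and Cdh5. This gave 4610, 8158, 4312 and 5845 cells in tumours 1 to 4, 22925 in all. A macrophage gate of 5 or more UMIs of C1qa and C1qb held 748, 515, 1038 and 812 cells, and it served as the measure of background. The 6 epithelial markers outside the gate (Krt7, Krt19, Cldn3, Cldn4, Cldn7 and Spint2) summed to 14.4 to 15.7 UMIs per 10000 in epithelial cells, and 5 macrophage markers summed to 0.298 to 0.588 there against 81.5 to 95.8 in the macrophage gate. Doublets were not removed.

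All 6 genes were detected in the epithelial cells of every tumour, at mean levels from 0.148 to 54.2 UMIs per 10000. Kappa-casein mRNA stood far above the others. Its epithelial level was 33.4, 89.8, 25.4 and 50.8 UMIs per 10000 in tumours 1 to 4, or 54.2 ± 31.0 (SD, n = 3 mice, with the 2 tumours of mouse 3 pooled). The inguinal tumour of mouse 2 was the highest and the thoracic tumour of mouse 3 the lowest. Lalba followed with 8.07, 18.1, 7.74 and 11.9 UMIs per 10000 (12.1 ± 5.31), in the same order of tumours as Csn3. Csn3 alone supplied 75.1%, 82.4%, 73.7% and 78.1% of the UMIs of the 6 genes, and the 6 together made up 0.444%, 1.09%, 0.344% and 0.651% of all epithelial UMIs.

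The other whey gene and the other caseins were low on average. Wap measured 1.28, 0.701, 0.897 and 1.57 UMIs per 10000 (1.08 ± 0.329, n = 3), and here the tumour highest in Csn3 was the lowest. Csn1s1 measured 0.629, 0.193, 0.166 and 0.510 (0.392 ± 0.221), with tumours 1 and 4 above tumours 2 and 3. Csn1s2a measured 0.856, 0.0839, 0.172 and 0.114 (0.360 ± 0.430), so that tumour 1 lay far above the other 3. Csn2, the gene of beta-casein, measured 0.216, 0.130, 0.0782 and 0.117 (0.148 ± 0.0604). The ranges of Csn1s1, Csn1s2a and Csn2 over the tumours overlapped, whereas Csn3, Lalba and Wap followed each other without overlap. Within each tumour Csn1s1 was above Csn2. Csn1s2a had no fixed place, above both in tumours 1 and 3 and below both in tumours 2 and 4. The lowest Wap value lay below the highest Csn1s2a value, that of tumour 1. Divided by the length of the longest coding transcript, the mean levels were 33.9 UMIs per 10000 and kilobase for Csn3, 15.6 for Lalba, 1.96 for Wap, 0.391 for Csn1s2a, 0.278 for Csn1s1 and 0.112 for Csn2.

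The 2 tumours of mouse 3 shared an animal, and their levels still differed. The inguinal tumour had 3.08 times the Csn1s1 level of the thoracic one (95% counting interval 2.71 to 3.50), 2.01 times the Csn3 level (1.98 to 2.03), 1.75 times the Wap level (1.65 to 1.85), 1.54 times the Lalba level (1.51 to 1.57) and 1.50 times the Csn2 level (1.22 to 1.85). Csn1s2a went the other way, with a ratio of 0.664 (0.560 to 0.786). These are exact intervals of 2 libraries that cover counting error only, and there was no replicate for a gland. They treat UMIs as independent, although UMIs of the scarce genes cluster in cells. In the thoracic tumour 1 cell held 128 of the 303 Csn1s1 UMIs. Csn2 was counted in 8 epithelial cells of the thoracic and 41 of the inguinal tumour.

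**Figure D1:**
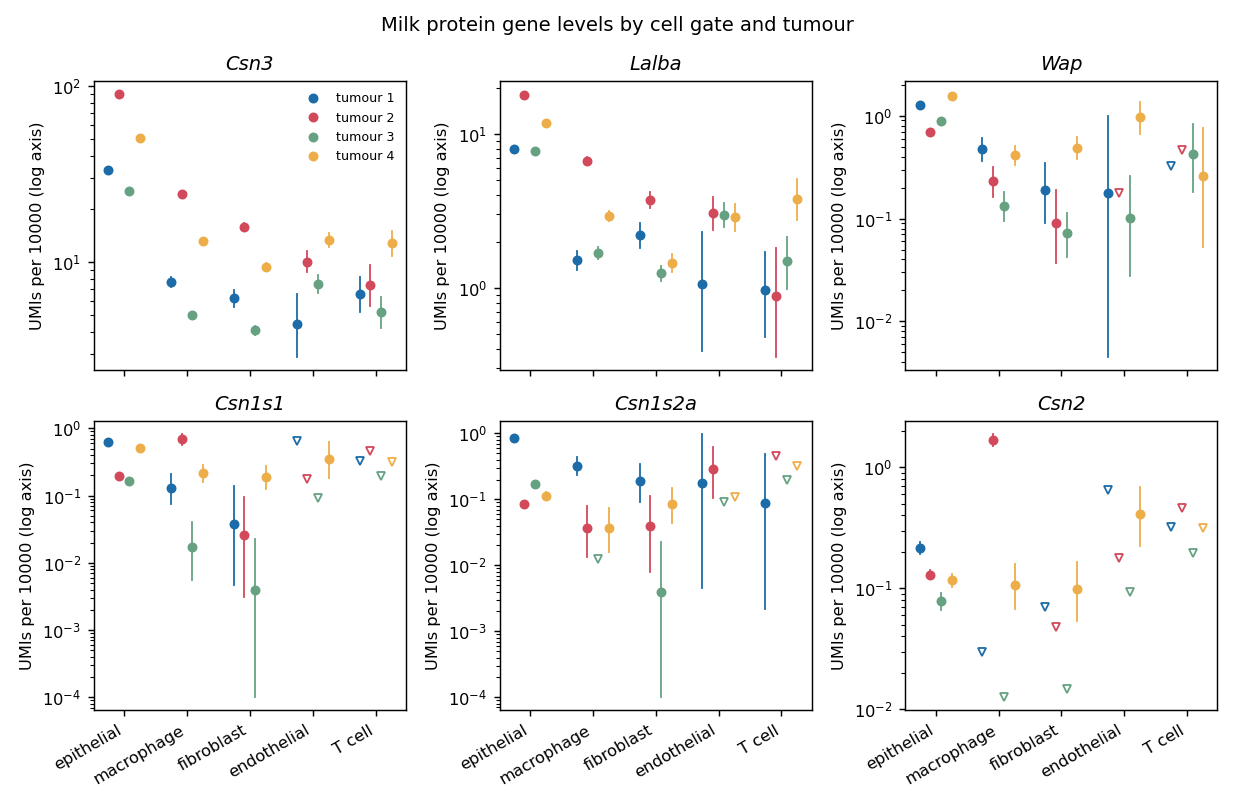
Level of each milk protein gene in UMIs per 10000 (log axis) in 5 cell gates, 1 point per tumour with its exact 95% Poisson interval; open triangles mark the upper bound where no UMI was counted. The epithelial points of Csn3, Lalba and Wap lie above those of every other gate of the same tumour, while Csn2 of tumour 2 is highest in the macrophage gate.

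Detection in single cells followed the same split between 2 abundant and 4 scarce genes. At full depth a Csn3 UMI was present in 80.6%, 97.8%, 66.5% and 90.1% of epithelial cells of tumours 1 to 4, and a Lalba UMI in 29.7%, 70.9%, 35.9% and 50.7%. Wap was found in 16.1%, 15.0%, 12.2% and 22.4% of cells, Csn1s1 in 3.73%, 3.42%, 1.81% and 6.09%, Csn1s2a in 9.09%, 2.57%, 3.94% and 3.25%, and Csn2 in 0.521%, 0.208%, 0.186% and 0.701%. The macrophage gate, which should lack these messages, held a Csn3 UMI in 25.9%, 63.1%, 25.8% and 42.2% of cells, at median totals of 1346.5 to 2573 UMIs against 2493 to 3591 in the epithelial gate.

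Thinning every cell to 1000 UMIs put the 2 gates on equal depth and left out 164 epithelial and 142 macrophage-gate cells, all of tumour 1. Csn3 was then detected in 70.8%, 94.1%, 54.1% and 79.2% of epithelial cells, against 22.1%, 44.7%, 14.9% and 28.8% in the macrophage gate. Lalba was detected in 22.1%, 50.9%, 23.1% and 36.3% of epithelial cells, against 5.61%, 17.7%, 5.49% and 10.3%. For Wap the shares were 7.49%, 4.74%, 4.87% and 10.5% against 2.15%, 1.55%, 0.771% and 3.08%. All 3 were above the macrophage share in each of the 4 tumours.

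The scarce caseins were detected in few cells of either gate. Csn1s1 was detected at 1000 UMIs in 2.07%, 1.12%, 0.580% and 2.50% of epithelial cells, against 0.825%, 0.388%, 0.0963% and 1.11% of macrophage-gate cells. Csn1s2a was detected in 4.86%, 0.686%, 1.41% and 1.03%, against 0.825%, 0%, 0% and 0.493%. Both were higher in the epithelial gate of each tumour. Csn2 was detected in 0.382%, 0.0858%, 0.139% and 0.428% of epithelial cells, against 0%, 0.388%, 0% and 0.123%. In tumour 2 its epithelial share, 7 of 8158 cells, was thus not above that of the macrophage gate, which rested on 2 of 515 cells. At full depth a barcode with 50 UMIs of Krt8, Krt18 and Epcam held 276 of the 278 Csn2 UMIs of that gate. At full depth no Csn2 UMI was seen in 748 macrophage-gate cells of tumour 1 or 1038 of tumour 3, which, with 3 counts as the limit that a count of 0 allows, leaves shares of up to 0.401% and 0.289%, and no Csn1s2a UMI in the 1038 of tumour 3.

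The 6 genes differed in how evenly their message was spread over cells. Csn3 was broad, in that the top 1% of epithelial cells held 6.24%, 5.23%, 8.24% and 5.43% of its UMIs in tumours 1 to 4. For Lalba that share was 20.1%, 10.1%, 21.9% and 12.8%, and for Wap 32.8%, 35.5%, 47.8% and 28.4%. The alpha-type caseins were concentrated further, with 43.3%, 56.5%, 55.4% and 48.0% for Csn1s2a and 79.8%, 68.5%, 88.4% and 56.2% for Csn1s1. In Csn2 the top 1% held 100% in every tumour, and the 10 highest cells alone held 84.2%, 98.5%, 100% and 75.1%. A gene with few UMIs is bound to sit in few cells, but Csn1s2a and Csn2 of tumour 4 had nearly equal sums, 254 and 261 UMIs, and the 10 highest cells held 18.1% of the former and 75.1% of the latter.

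**Figure D2:**
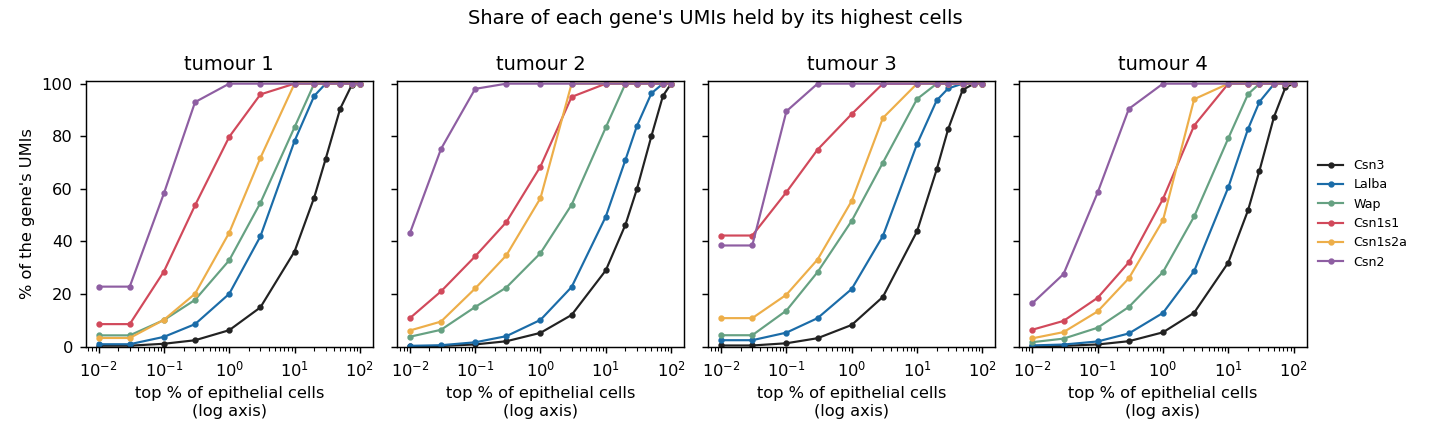
Cumulative share of each gene's epithelial UMIs (vertical axis, %) held by the highest share of cells for that gene (horizontal axis, %, log axis), 1 panel per tumour. Csn2 reaches 100% within the top 1% of cells in each tumour, and Csn3 stays below 10% there.

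Most beta-casein mRNA was counted in few cells. Of 22925 epithelial cells, 26 held 10 or more Csn2 UMIs (9, 4, 4 and 9 in tumours 1 to 4), a class set after the values had been seen. These cells held 81.1%, 95.8%, 89.5% and 71.6% of the epithelial Csn2 UMIs of their tumours. Their Csn2 counts ran from 10 to 196, with a median of 21. The highest, in tumour 2, had 196 Csn2, 69 Csn1s1, 232 Csn3, 65 Wap and 76 Lalba UMIs and none of Csn1s2a, in a total of 15046. The cell with most Csn1s1, in tumour 3, had 128 Csn1s1, 16 Csn1s2a, 38 Csn2, 121 Csn3, 23 Wap and 78 Lalba UMIs of 12152.

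Most of these 26 cells carried the rest of the milk protein set as well. Csn3 and Lalba were detected in all 26, Csn1s1 in 23, Csn1s2a in 20 and Wap in 20, and all 6 genes together in 14. The median counts per cell were 50 for Csn3, 21 for Csn2, 19.5 for Csn1s1, 17.5 for Lalba, 10 for Wap and 2 for Csn1s2a. The 6 genes made up a median of 2.63% of a cell's UMIs (0.999% to 5.06%). Their pooled Csn1s1 level was 61.5, 41.8, 53.8 and 34.5 UMIs per 10000 in tumours 1 to 4, against 0.257, 0.147, 0.0718 and 0.414 in cells without Csn2. Lalba stood at 51.3, 32.7, 72.5 and 30.4 against 7.72, 18.1, 7.60 and 11.8. Csn3 stood at 85.6, 142, 103 and 91.0 against 33.0, 89.7, 25.2 and 50.8. The 26 cells were deep, with a median total of 5574 UMIs, and without the 8% of cells with most UMIs the mean Csn2 level was 0.0844 in place of 0.148 UMIs per 10000.

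Co-detection in single cells was computed on the thinned counts, as the odds ratio of finding 2 of the genes in the same epithelial cell. In 11 of the 15 pairs the odds ratio was above 1 in all 4 tumours, and in 8 without the 8% of cells with most UMIs. Of the pairs given here, Csn1s2a with Csn2 then went to 0 in tumour 3, and Csn2 with Wap and with Lalba to 0 and 0.967 in tumour 2. The strongest pair was Csn1s1 with Csn2, neighbours in the cluster, with odds ratios of 424, 124, 408 and 27.9. Of the cells with Csn2, 15 of 17, 4 of 7, 4 of 6 and 10 of 25 also had Csn1s1. Csn1s2a with Csn2 followed, at 18.0, 24.5, 36.0 and 33.7, from 8, 1, 2 and 6 shared cells. Csn2 with Wap gave 11.2, 8.07, 39.8 and 5.78. Csn2 with Lalba gave 26.9, 1.29, 16.7 and 4.54, the second value coming from 4 shared cells of tumour 2. Every cell with Csn2 also had Csn3, so for that pair no odds ratio could be formed.

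The 2 abundant genes were found together on larger numbers of cells. Csn3 with Lalba gave 5.51, 2.40, 7.27 and 8.64, and of the cells with Lalba 91.1%, 96.4%, 85.4% and 95.3% also had Csn3. Wap with Csn3 gave 1.92, 2.22, 2.69 and 3.45, and Wap with Lalba 3.07, 1.63, 1.79 and 2.01. These 3 pairs were also found together in the macrophage gate, used as background. There Csn3 with Lalba gave 3.89, 6.38, 5.54 and 7.96, from 17, 72, 26 and 60 shared cells, below the epithelial value in all tumours but tumour 2. Csn3 with Wap gave 21.0, 8.91, 3.47 and 6.80, from 11, 7, 3 and 18 shared cells, above the epithelial value in each tumour, and Wap with Lalba gave 5.44, 14.9, 0 and 6.42, above it in all but tumour 3. Whether the gates differ was not tested. For Csn1s1 with Csn2 the macrophage gate held 1 shared cell in all, in tumour 2. Csn1s2a with Csn3 gave 2.28, 1.23 and 2.38 in tumours 1, 3 and 4 and could not be formed in tumour 2. Csn1s2a with Wap gave 0.782, 1.14, 0.659 and 1.72, and with Lalba 0.846, 2.23, 1.29 and 2.02, so both pairs fell on either side of 1. With the call set at 2 UMIs, 7 of 15 pairs stayed above 1 in all 4 tumours. These odds ratios describe cells within a tumour, and no p-value was attached to them.

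**Figure D3:**
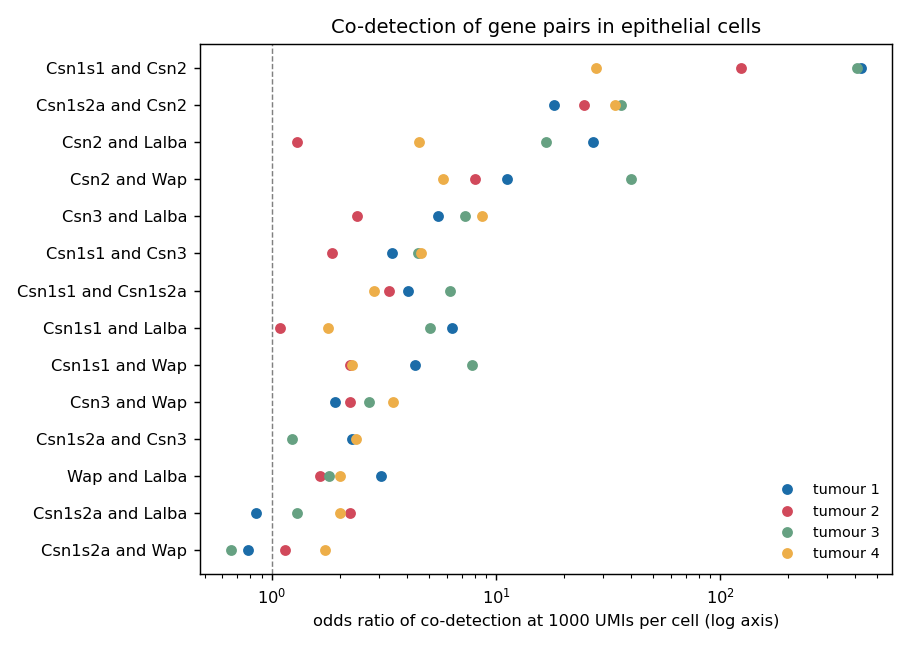
Odds ratio of detecting both genes of a pair in the same epithelial cell at 1000 UMIs per cell (log axis), 1 point per tumour and pair, with 1 marked by the dashed line. Csn1s1 with Csn2 reaches the highest values (27.9 to 424), and Csn1s2a with Wap or Lalba falls on both sides of the line.

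The genes were also counted per thinned cell. No member of the set was found in 25.1%, 3.97%, 40.8% and 18.2% of epithelial cells of tumours 1 to 4, and 4 or more in 32 of 4446, 11 of 8158, 8 of 4312 and 35 of 5845. In the macrophage gate 4 or more were found in 2 of 606, 1 of 515, 0 of 1038 and 4 of 812 cells.

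The background of the set in the macrophage gate was then compared with that of other epithelial genes. The Csn3 level there was 7.68, 24.4, 4.95 and 13.1 UMIs per 10000, which was 23.0%, 27.2%, 19.5% and 25.7% of the epithelial level. Lalba reached 18.8%, 37.2%, 21.8% and 24.7%, and Wap 37.3%, 32.7%, 14.9% and 26.2%. For 12 epithelial genes outside the gate the median ratio was 25.0%, 34.8%, 23.3% and 28.5%, with Lgals3bp, the only one of the 12 above 100%, at 229% to 534%. When macrophage-gate cells were limited to those with no Krt8, Krt18 or Epcam UMI (558, 249, 681 and 440 cells), the Csn3 ratio was 4.98%, 3.89%, 3.47% and 4.80%, and the median of the 12 genes 5.69%, 3.65%, 5.56% and 6.68%. The Csn3 ratio lay below the median of the 12 in all 4 tumours in the full gate, and in all but tumour 2 in the narrower one.

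Single barcodes held much of the macrophage-gate signal of Csn2, and of Csn1s1 in tumour 2. Csn1s1 in the macrophage gate stood at 20.5%, 357%, 10.3% and 42.6% of its epithelial level, and Csn2 at 0%, 1293%, 0% and 90.8%. One macrophage-gate barcode of tumour 2 held 276 of the 278 Csn2 UMIs and 108 of the 114 Csn1s1 UMIs counted there. It had 19208 UMIs in all, 50 of Krt8, Krt18 and Epcam and 6 of C1qa and C1qb. In tumour 4 a barcode with 15 keratin and Epcam UMIs and 16 C1q UMIs held all 23 Csn2 UMIs, and in tumour 1 a barcode with no keratin or Epcam UMI and 18 C1q UMIs held 22 of the 40 Csn1s2a UMIs. The Csn1s1 UMIs of tumour 4 were spread further, 47 over 17 barcodes with at most 16 in 1. In the cells with no keratin or Epcam UMI, Csn1s1 stood at 2.02%, 16.5%, 3.61% and 2.05% of the epithelial level.

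Summed per mouse and fitted with mouse as a block, 4 of the 6 genes were lower in the macrophage than in the epithelial gate, beside 22.7% of all 8810 genes tested. The log2 fold change was -1.87 ± 0.26 (SE) for Csn3 (adjusted p = 3.8e-06), -1.76 ± 0.30 for Lalba (4.7e-05), -1.69 ± 0.25 for Wap (8.5e-06) and -1.66 ± 0.37 for Csn1s2a (0.00070), each lower in 3 of 3 mice. Csn1s1 (-0.27 ± 0.51, adjusted p = 0.70) and Csn2 (1.22 ± 0.81, adjusted p = 0.23) were not called. Without mouse 2, which holds the barcode with 276 Csn2 UMIs, all 6 were called lower, Csn1s1 at -1.79 and Csn2 at -1.69. Without mouse 3 Csn2 was called higher in the macrophage gate, at 2.06 (adjusted p = 0.0098), and without the 8% of cells with most UMIs Csn1s1 was called lower, at -1.70.

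Levels were also lower in the other cell gates. In fibroblast-gate cells (5 or more UMIs of Col3a1 and Dcn, 1789 cells) 5 genes were called lower, with 24.2% of all genes called lower: Wap at -2.65 ± 0.30, Csn3 at -2.59 ± 0.27, Csn1s1 at -2.54 ± 0.69 and Lalba at -2.41 ± 0.32, and Csn1s2a at -2.01 ± 0.43, while Csn2 at -2.34 ± 1.25 was not called (adjusted p = 0.13). In endothelial-gate cells (356) 3 were called lower beside 17.9% of all genes (5 without mouse 2, with Csn1s1 and Csn1s2a), Csn3 at -2.84 ± 0.29, Lalba at -2.42 ± 0.35 and Wap at -1.90 ± 0.38. In T cell-gate cells (272) 4 were called lower beside 13.1%, Lalba at -2.69 ± 0.39, Csn3 at -2.68 ± 0.29, Wap at -2.40 ± 0.53, and Csn1s2a, which rested on 1 UMI among T cells and was 11.2 times higher in epithelial cells (95% counting interval 2.01 to 442). No Csn1s1 or Csn2 UMI was seen in the T cell gate, which puts their levels there at least 5.52-fold and 2.14-fold lower than in epithelial cells, taking 3 counts over the gate as the floor. In tumour 4 the endothelial gate (111 cells) held 0.411 Csn2 UMIs per 10000, above the 0.117 of its epithelial cells. That value rests on 14 UMIs, the only Csn2 UMIs of the endothelial gate in any tumour.

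Within the epithelial gate, cells with basal keratins carried less message of most of the milk protein genes when summed per mouse. Cells with 3 or more UMIs of Krt5 and Krt14 (31, 116, 169 and 202 in tumours 1 to 4) were set against the 20751 with none. Of the 6 genes 5 were called lower, beside 2.86% of 12920 genes. Wap averaged 0.412 ± 0.0969 UMIs per 10000 in the keratin-positive and 1.10 ± 0.337 in the keratin-negative cells (SD, n = 3 mice), a log2 fold change of -1.50 ± 0.18 (adjusted p = 3.9e-15). Csn1s2a fell by 2.21 on the log2 scale (SE 0.39, adjusted p = 8.4e-07). Csn2 was also called lower (log2 fold change -4.68), but its UMIs sit in few cells, so that little weight rests on this call. It was found in 0 of 31, 0 of 116, 0 of 169 and 1 of 202 keratin-positive cells of tumours 1 to 4, and in 0.476%, 0.162%, 0.185% and 0.584% of the keratin-negative ones. The exact 95% upper bounds for the keratin-positive cells, 11.2%, 3.13%, 2.16% and 2.73%, lie above all of these, so a difference in the share of cells with Csn2 was not detectable.

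Lalba and Csn3 differed by less. Lalba averaged 8.30 ± 1.39 against 12.2 ± 5.75 UMIs per 10000 (log2 fold change -0.65 ± 0.14, adjusted p = 0.00012), and Csn3 43.3 ± 19.3 against 54.2 ± 31.8 (-0.42 ± 0.14, adjusted p = 0.038). Each of the 5 was lower in 3 of 3 mice, but Csn3 in mouse 3 only narrowly, at 38.1 against 38.6 UMIs per 10000. In tumour 3 of that mouse Csn3 was higher in the keratin-positive cells, at 30.6 against 24.4 UMIs per 10000. The 6 genes in sum were higher there too, at 36.6 against 33.4. Csn1s1 was not called (0.20 ± 0.20, adjusted p = 0.68), with 0.0942, 0.180 and 0.488 UMIs per 10000 in the keratin-positive cells of mice 1 to 3 against 0.561, 0.167 and 0.323. Without mouse 2 or without mouse 3 the calls of Lalba (adjusted p = 0.30 and 0.11) and Csn3 (0.47 and 0.45) were lost, and without the block for mouse none of the 5 was called. The keratin-positive cells were deeper than the keratin-negative ones in each tumour, with medians of 2833 to 6409.5 against 2471.5 to 3547.5 UMIs.

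The 4 caseins lie within 266 kb of chromosome 5, between the start of Csn1s1 and the end of Csn3, and Csn3 stood apart from the other 3 in level. That interval holds 7 protein-coding genes with a row in the table. Csn1s2b, another alpha-S2-type casein gene, had 331 UMIs in 321 epithelial cells (0.0373 UMIs per 10000), Odam 50 UMIs and Prr27 14. Csn3 at 259 kb from the Csn1s1 start measured 58.4 UMIs per 10000 over all epithelial cells, against 0.332, 0.129 and 0.224 for Csn1s1, Csn2 and Csn1s2a. Beyond Csn3 the submandibular gland protein genes Smr3a and Smr2 had 447 and 1626 UMIs, with 0.0148 to 0.230 and 0.0283 to 1.01 UMIs per 10000 across tumours.

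**Figure D4:**
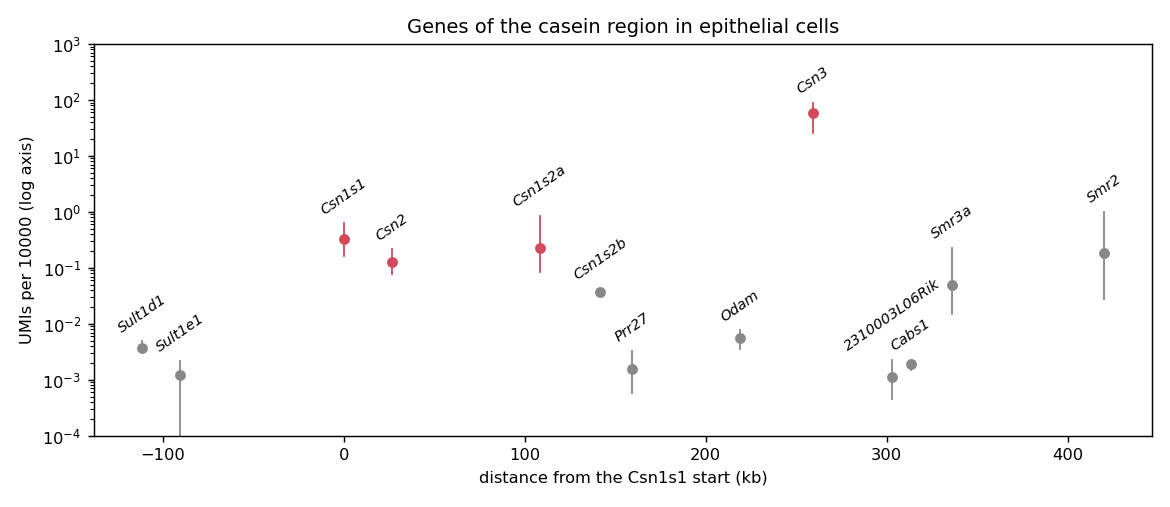
Epithelial level (UMIs per 10000, log axis) of protein-coding genes with 10 or more UMIs around the casein cluster, by distance of the gene's lower coordinate from the Csn1s1 start in kb; points are all epithelial cells, bars run from the lowest to the highest tumour and start at the axis floor where a tumour had none. Csn3 (red, at 259 kb, 58.4) lies above every neighbour, and the points of the other 3 caseins of the set (red) lie between 0.129 and 0.332.

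To see which other genes went with milk protein message, the tenth of epithelial cells highest in the summed 6 genes at 1000 UMIs was compared with the rest within each tumour (445, 816, 431 and 584 cells). This class is a range cut from a continuous score, with lower limits of 12, 23, 12 and 20 UMIs, and 22, 13, 65 and 58 of its cells had exactly the limiting sum, as did 63, 102, 9 and 0 of the rest. In it Csn3 measured 107, 223, 100.3 and 176 UMIs per 10000 and Lalba 55.5, 56.7, 53.4 and 56.8, while the other 4 genes measured at most 5.08. Of 13167 genes, 431 (3.27%) were called higher and 303 (2.3%) lower, from 356 calls in all without mouse 3 to 1116 without mouse 2. The median log2 fold change of all genes was -0.02. The high cells were shallower than the rest, with median totals of 2106 to 2798 against 2620 to 3663 UMIs.

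Other genes of milk were higher in these cells. Of 19 listed other milk and whey proteins 16 were tested, 13 were called higher and none lower, with a median log2 fold change of 0.78. Lao1, an L-amino acid oxidase gene, rose by 1.73 ± 0.14. Spp1, the gene of osteopontin, averaged 5806 CPM (UMIs scaled to a library total of 1e6) against 1792 (log2 fold change 1.73 ± 0.07, adjusted p = 5.6e-09). Saa2 and Saa1, serum amyloid A genes, rose by 1.61 ± 0.07 and 1.47 ± 0.08, Ltf, the gene of the iron-binding lactoferrin, by 1.09 ± 0.11, and Trf, the gene of transferrin, by 0.74 ± 0.09. Lcn2, which encodes the siderophore-binding lipocalin 2, rose by 0.60 ± 0.10, and Wfdc18, a whey acidic protein-type gene, by 0.35 ± 0.07. Wfdc2, Saa3 and Lyz2 were not called, at -0.43, 0.13 and -0.06.

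Genes of secretion moved the same way. Of 20 tested genes of casein secretion and the endoplasmic reticulum 11 were called higher and none lower, with a median of 0.58. Sdf2l1 and Manf, both endoplasmic reticulum stress proteins, rose by 1.04 ± 0.09 and 1.04 ± 0.07, and the chaperone genes Hspa5 (BiP) and Hsp90b1 by 0.89 ± 0.07 and 0.70 ± 0.07. The disulfide isomerase gene Pdia6 rose by 0.97 ± 0.07, and Xbp1, a transcription factor of the secretory programme, by 0.37 ± 0.07. Fam20c, the casein kinase of the Golgi, was not called at 0.04 ± 0.29.

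The genes of milk fat and lactose and the regulators of the alveolar programme were mostly not called. Of 18 tested milk fat and lactose genes 5 were higher and 2 lower, with a median of 0.12. Btn1a1 and Xdh, whose products coat milk fat globules, rose by 1.23 ± 0.15 and 0.53 ± 0.08, and Plin2, the lipid droplet coat gene, by 0.37 ± 0.10, while Thrsp and Scd2, genes of fatty acid synthesis, fell by 0.59 and 0.47 on the log2 scale. B4galt1, the galactosyltransferase that alpha-lactalbumin modifies, stood at -0.03 ± 0.11. Of 20 tested regulators only Elf5, an alveolar transcription factor, was higher (0.49 ± 0.10, adjusted p = 0.0091) and only Akt1 lower (-0.55 ± 0.13, adjusted p = 0.029). Prlr, the prolactin receptor gene, stood at 0.05 ± 0.11, Stat5a at 0.02 ± 0.16 and Stat5b at 0.17 ± 0.18, none of them called.

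Proliferation genes were lower. Of 16 tested 13 were called lower and none higher, with a median of -1.15. Mki67 averaged 5.47 against 17.4 CPM (log2 fold change -1.64 ± 0.20, adjusted p = 0.00031), Top2a 14.3 against 42.3 CPM (-1.51 ± 0.14) and Birc5 32.9 against 88.4 CPM (-1.44 ± 0.11). Pcna, Tyms and Mcm2 were not called. Dissociation and stress genes were higher in 4 of 15 (Fos, Fosb, Ier2 and Hspa1a, by 0.41 to 0.51). Haemoglobin genes were lower in 3 of the 4 tested of 5 listed red blood cell markers, and macrophage markers in 1 of 7 tested of 10 listed (Cd74, -0.51 ± 0.11). Of the other markers Krt17 was lower (-3.56 ± 0.43) among 8 basal and myoepithelial genes tested, Cd14 higher (1.30 ± 0.11) among 8 luminal progenitor genes and Egfl7 lower (-1.56 ± 0.42) among 7 endothelial genes. Of 7 tested neighbours of the casein cluster Amtn was higher (0.74 ± 0.17) and Smr3a (-2.17 ± 0.45) and Prol1 (-0.91 ± 0.22) lower. None was called among 4 hormone sensing, 5 fibroblast, 5 T cell genes and 1 adipocyte gene. Of 12 epithelial genes outside the gate Lgals3bp was higher (0.64 ± 0.11) and Cldn4 (-0.80 ± 0.16) and Krt7 (-0.55 ± 0.12) lower. The part of these markers and of depth in the other differences was not tested.

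**Figure D5:**
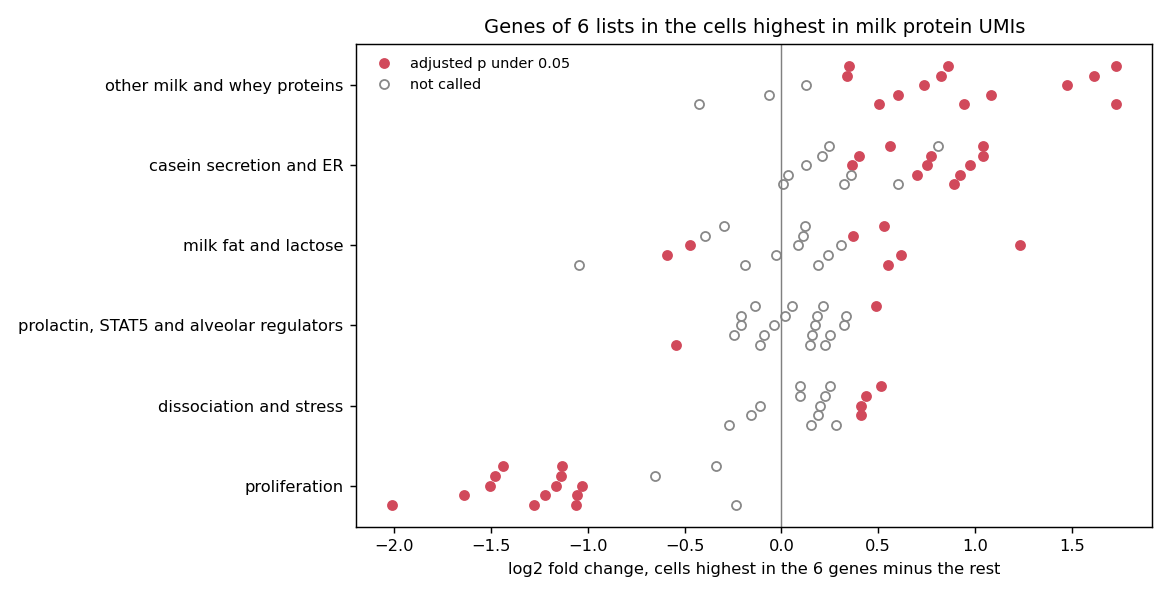
Log2 fold change of single genes of 6 lists (rows) between the tenth of epithelial cells highest in the 6 milk protein genes and the rest; filled points had an adjusted p under 0.05 in edgeR with 3 mice as blocks. Other milk proteins and secretory genes lie mostly to the right of 0, and proliferation genes to the left.

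By size of change, the 10 genes most raised at 50 CPM or more, in 3 of 3 mice, were Srgn (1.83 ± 0.13), Spp1, Plb1 (1.68 ± 0.12), 2310057J18Rik (1.67 ± 0.20), Npy (1.63 ± 0.21), Saa2, Lrg1 (1.55 ± 0.11), Ecrg4 (1.48 ± 0.15), Saa1 and Cck (1.38 ± 0.18). Srgn encodes the granule proteoglycan serglycin, and Npy and Cck encode peptide hormones. The 10 most lowered were Hba-a1 (-2.68 ± 0.24), Hbb-bs (-2.43 ± 0.22), Dcpp2 (-1.98 ± 0.24), Dcpp1 (-1.61 ± 0.21), Birc5, Spc24 (-1.44 ± 0.14), Pclaf (-1.41 ± 0.15), Arg1 (-1.28 ± 0.20), Pttg1 (-1.27 ± 0.14) and Ube2c (-1.16 ± 0.10). Birc5, Spc24, Pclaf, Pttg1 and Ube2c are genes of the cell cycle, and Hba-a1 and Hbb-bs encode haemoglobin chains of red blood cells. In the highest 20% of cells Hba-a1 and Hbb-bs were at -0.45 and -0.38 and were no longer called.

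Since Csn3 and Lalba dominate the sum, the split was repeated on Csn1s1, Csn1s2a, Csn2 and Wap, a choice made after the data had been seen. It called 59 genes higher and 32 lower. Of the other milk and whey proteins 12 of 16 were then higher and 1 lower (Wfdc2, -0.92), Saa2 at 1.07 and Saa1 at 0.86 among them, and of the secretory genes 5 of 20 were higher. None of the 16 proliferation genes was called, with a median of -0.07, Birc5 at -0.03 and Mki67 at -0.04. A split on all genes but Csn3 called 13 of the 16 lower. Npy and Ecrg4, raised in the first split, fell by 0.61 and 0.73 on the log2 scale in the split on the 4 scarce genes. Srgn, Plb1 and Cck were not called there, at 0.12, 0.018 and 0.36, and Srgn and Plb1 were not called in the split without Csn3 either, at 0.45 and 0.77. Smr2, a neighbour in the casein region, rose by 1.63 there and stood at 0.30, not called, in the first split. Whether the splits differ was not tested.

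Over single cells, the genes whose thinned counts followed the summed 6 genes most closely in all 4 tumours were Spp1 (Pearson r of 0.23 to 0.45 within a tumour), Lrg1 (0.20 to 0.40), Itm2b (0.16 to 0.37), Trf (0.16 to 0.40), Igfbp5 (0.15 to 0.45), Ly6e (0.14 to 0.40), Wfdc18 (0.12 to 0.34), Pdia6 (0.10 to 0.11), Lcn2 (0.09 to 0.41) and Cd14 (0.09 to 0.20). These are correlations across cells that share a library, given as a description. All of these genes but Cd14 were also among the 10 closest to Csn3 alone, which supplied most of the sum. Within the set, Csn1s1 correlated with Csn2 at 0.26 to 0.59 and with Wap at 0.05 to 0.13, and Csn3 with Lalba at 0.17 to 0.40. Among genes outside the set the highest for Csn1s1 was Spp1 with 0.04 to 0.11. In counts this sparse that is no finding, and neither is the Csn1s1 value with Wap, which was of similar size.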

How the data were processed

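The 4 tumours were profiled by single-cell RNA sequencing. Matrices were deposited as whole UMI counts, not normalized; FastQC and Cell Ranger 2.2.0 with mm10 (GRCm38) are named per the submitters' processing notes, and the role of each tool and its settings are not given in the sources used here. Whether the library reads transcript ends is likewise not given, so levels are also shown per kilobase. Ambient RNA was not subtracted and doublets were not removed. Barcodes under 300 genes (24 in all) or with 15% or more mitochondrial UMIs (0) were left out.

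Cells were gated on raw UMIs; fibroblast, endothelial (3 or more of Cdh5 and Pecam1) and T cell gates (2 or more of the Cd3 genes) were cells of no other gate. Thinning drew UMIs without replacement. For tests, raw counts were summed per mouse and arm, with both tumours of mouse 3 together, and fitted in edgeR version 4.0.16 (TMM, filterByExpr, quasi-likelihood test), blocking on the mouse because the arms come from the same animal. Benjamini-Hochberg adjustment ran over all genes, with calls at 0.05. Intervals are exact Poisson, binomial or conditional binomial at 95% and cover counting error only. As a check, simulated counts were fitted in which 200 genes differed 2-fold between the arms. Of these, 35% were recovered for the macrophage gate, with 1 false call. The share was 18.5% for the keratin comparison and 55% for the high cells, with 3 false calls in each. The simulation held only the arms compared, with no differences between mice, a fixed spread, and changes only in genes above a count limit. For the macrophage gate it covered 14155 genes, whereas the fit reported above took all gates together and tested 8810. The shares are therefore only a rough guide to the fits reported here. A gene that was not called may still differ by 2-fold. The genes, lists and tests were chosen with earlier results of these data known. Named genes were the 6 milk protein genes, members of the lists, the 10 highest and 10 lowest called genes at 50 CPM or more moving the same way in 3 of 3 mice, and the 10 genes with the highest lowest correlation among genes found in 2% of cells. DESeq2 1.42.0 was an alternative, as were other scaling, filters, gates, depths and splits and leaving out each mouse.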

Additional observations from a re-analysis of the deposited data

Results flagged for a closer look

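In 3 results 1 of the 4 tumours lay far from the rest, by Dixon's 95% criterion on the gap over the range, among 18 sets of tumour values examined. Chance alone gives about 1 in 20 for independent samples, and tumours 3 and 4 share a mouse, so the criterion is only a guide here. The Csn1s2a level in epithelial cells was 0.856 UMIs per 10000 in tumour 1, the tumour of multiple glands, against 0.0839 to 0.172 in the other 3. The Csn1s1 level of the macrophage gate was 357% of the epithelial level in tumour 2, against 10.3% to 42.6% elsewhere. The Csn2 level of the macrophage gate was 1293% of the epithelial level in tumour 2, against 0% to 90.8% elsewhere. Both ratios of tumour 2 rest on the barcode with 276 Csn2 and 108 Csn1s1 UMIs, which also holds 50 keratin and Epcam UMIs; whether it is 1 cell was not tested.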

How the results depend on the processing

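Among the alternative fits of single genes, direction and call stayed the same in 409. A call was lost in 53, of which 36 were of the genes named for the high cells, and gained in 15. Direction changed in 13 of the fitted values. Csn1s1 in keratin-positive cells (0.20) went to -0.15 with DESeq2, -0.50 without mouse 3 and -0.22 without the replicate block. Csn1s1 in the macrophage gate (-0.27) went to 0.45 without mouse 1 and 0.43 without mouse 3, and Csn2 (1.22) to -1.69 without mouse 2. Csn2 in the endothelial gate (-0.30) went to 0.32 without mouse 1 and 0.27 without mouse 2. Over the 3 mice left out in turn these values ran from -0.50 to 0.39, -1.79 to 0.45, -1.69 to 2.27 and -9.98 to 0.32, the last low value being a fit to mice with no endothelial Csn2 UMI and no bound. With the split on the 4 scarce genes Ecrg4, Npy and Pclaf went to -0.73, -0.61 and 0.077, and with the split without Csn3 Ecrg4 and Npy to -0.27 and -0.55. Both splits were chosen after seeing the data. The cause was not tested.

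Without the replicate block, in edgeR, 0 of the milk protein genes were called in the keratin comparison and 0 genes higher and 0 lower in the high cells, where 993 had an unadjusted p under 0.05. The block stands for the animal that gave both arms. Leaving out 1 mouse gave 3 to 5 calls in the endothelial comparison, 3 to 5 in the keratin comparison, and 239 to 668 higher and 117 to 448 lower genes in the high cells. Without a count filter 5 genes were called in the endothelial gate and 754 genes lower in the high cells. DESeq2 called 122 lower and the highest 20% of cells 493. The split on 4 genes gave 59 higher and 32 lower, and that without Csn3 109 and 150. Without the deepest 8% of cells 3 genes were called in the keratin comparison, and Csn2 averaged 0.0844. Other scaling (DESeq2 size factors) moved the median of all genes in the fibroblast gate from -0.06 to 0.09 and the genes called lower from 2129 to 1638.

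In macrophage-gate cells without keratin or Epcam UMIs the ratio to the epithelial level averaged 4.18% for Csn3, 3.68% for Lalba, 4.12% for Wap and 13.2% for Csn1s2a, and with 10 or more C1q UMIs 17.8% for Csn3. At 2000 UMIs Csn1s1 and Wap were detected in 2.76% and 11.9% of cells, and with 2 UMIs required in 0.545% and 1.60%. With 2 UMIs required 7 pairs were above 1 in all tumours. In all, 29 such counts, levels and shares moved by more than the spread between mice, or by over 1.5 times for counts, and 141 did not. Without the 8% of cells with most UMIs, 8 pairs were above 1 in all tumours.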
